A study of Mus musculus with 4 samples.

Results

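The comparison described here sets keratinocytes of Il17rd knockout (KO) mice that received interleukin-17A (IL-17A) beside untreated wild-type (WT) keratinocytes. It uses 2 of the 4 RNA-seq libraries of the study, 1 per group, and was chosen by those labels. Of 13102 genes, 12934 had a mean of at least 1 CPM (counts relative to the scaled library size) over the 4 libraries and were compared. All cells were primary epidermal keratinocytes of newborn C57BL/6 mice, grown for 48 h in 154CF medium with the HKGS supplement. The Il17rd KO cells were given IL-17A at 100 ng/mL for 8 h, and the WT cells of this comparison were not. The remaining groups, WT cells and Il17rc KO cells with the same IL-17A treatment, serve as points of reference. These 3 groups with IL-17A are called treated below. The sources used here do not give how many mice supplied each library, their sex or which part of Il17rd was deleted. Treatment and genotype both differ between the compared libraries and cannot be told apart, and untreated Il17rd KO cells were not analysed here.

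IL-17A is a cytokine of epithelial defence. It binds a receptor made of IL-17RA and IL-17RC and, through the adaptor Act1, raises chemokines, antimicrobial proteins and factors such as IκBζ, in large part by NF-κB and by stabilising messenger RNA. IL-17RD belongs to the same receptor family and is also known as SEF, an inhibitor of fibroblast growth factor and ERK signalling. In the epidermis, basal cells marked by keratins 5 and 14 divide and then move upward, where they make keratins 1 and 10, loricrin and filaggrin. Small proline-rich and late cornified envelope proteins are linked into the cornified envelope of the outermost cells.

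The libraries held between 19711866 and 19904695 counts over these genes. Keratinocyte markers were abundant in both compared libraries. Krt5 had 390468 counts in untreated WT and 346506 in treated Il17rd KO, and Krt14 had 227716 and 234728. Trp63, a transcription factor of stratified epithelia, had 6349 and 7647. Sex-linked transcripts set the libraries apart. The Y-linked Eif2s3y had 589 counts in untreated WT, 204 in treated WT, 540 in treated Il17rc KO and 0 in treated Il17rd KO, and Kdm5d and Uty were also at 0 in the last. Xist had 2420, 4750, 2668 and 8513 counts in the same order. Sex-linked transcripts thus differ between the compared libraries along with treatment and genotype, and the part of sex in the results below was not tested.

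A gene was called higher or lower when its counts, relative to the scaled library size, differed at least 2-fold and 1 lay outside the exact 95% counting interval of that ratio. That interval is given in parentheses beside the ratios described most fully. It covers counting error only, since reads are not independent molecules and no group has a replicate, and no p-value was computed. A call therefore describes these libraries and not the conditions. By this rule 693 genes (5.36%) were higher and 433 (3.35%) lower in treated Il17rd KO, 8.71% of those compared. Of the called genes 61.5% were higher, and with scaling by total counts this share was 71.8%, since that scaling moves the median log2 ratio of all genes to 0.11. At 4-fold, 114 genes were higher and 48 lower. The median log2 ratio over all genes was 0.00, with quartiles at -0.29 and 0.29, and is the level against which each gene list below is read. Counts of called members in each list are likewise read beside the 5.36% higher and 3.35% lower of all genes. Genes named below include members of the lists that were chosen after their values were seen.

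**Figure D1:**
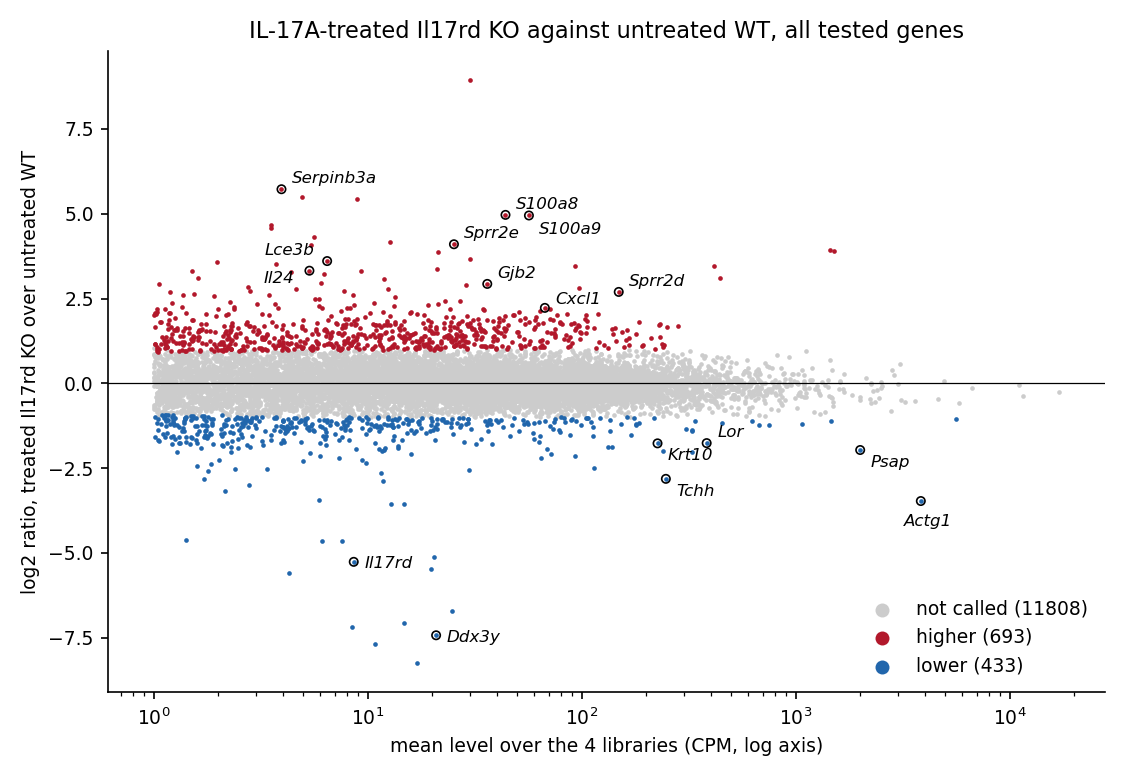
Log2 ratio of treated Il17rd KO over untreated WT (vertical axis, prior count of 2) against the mean level over the 4 libraries (horizontal axis, CPM, logarithmic), 1 point per gene. Red points are the 693 genes called higher, blue points the 433 called lower and grey points the 11808 not called. S100a8, S100a9, Sprr2e and Serpinb3a lie at the top, and Il17rd, Ddx3y and Actg1 at the bottom.

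Upstream sequence is shown for 8 genes, chosen with the results of this comparison known and from those with a sequence at hand. They are the S100a8 and S100a9 pair, 4 Sprr2 genes that are neighbours on chromosome 3, and the IL-17A-responsive chemokines Cxcl1 and Cxcl2. Sequence was not at hand for several other members, such as Cxcl5, Csf3, Il24 and Lce3 genes. Each line gives the 200 bases before the RefSeq transcription start (GRCm38.p6), 5′ to 3′ on the strand of the gene. Searched on both strands were TGANTCA (bound by AP-1), GGG and TTCC with any 3 bases between them (bound by NF-κB), TTGCNNAA (bound by C/EBP) and TTCNNNGAA (bound by STAT factors), and matches are in capitals. Among 32851 RefSeq promoters of the same length, 5.48% held the first motif, 3.91% the second, 7.47% the third and 5.49% the last. S100a8 lies at chr3:90668871-90669070 on the plus strand and S100a9 at chr3:90695722-90695921 on the minus strand.
S100a8: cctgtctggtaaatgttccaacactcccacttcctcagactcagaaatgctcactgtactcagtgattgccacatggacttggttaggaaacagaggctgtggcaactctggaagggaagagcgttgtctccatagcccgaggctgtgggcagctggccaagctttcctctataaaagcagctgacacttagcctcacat
S100a9: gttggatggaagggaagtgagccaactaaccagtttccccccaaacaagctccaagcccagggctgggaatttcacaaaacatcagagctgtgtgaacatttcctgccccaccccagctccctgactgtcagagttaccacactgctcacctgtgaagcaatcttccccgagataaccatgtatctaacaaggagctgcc
Neither held a match to any of the motifs. The Sprr2 windows, all on the plus strand, are Sprr2b at chr3:92316505-92316704, Sprr2d at chr3:92338940-92339139, Sprr2e at chr3:92351943-92352142 and Sprr2f at chr3:92364987-92365186.
Sprr2b: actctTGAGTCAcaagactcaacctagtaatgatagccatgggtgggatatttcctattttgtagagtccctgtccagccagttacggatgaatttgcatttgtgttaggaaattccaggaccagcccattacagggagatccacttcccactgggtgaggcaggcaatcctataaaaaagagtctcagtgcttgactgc
Sprr2d: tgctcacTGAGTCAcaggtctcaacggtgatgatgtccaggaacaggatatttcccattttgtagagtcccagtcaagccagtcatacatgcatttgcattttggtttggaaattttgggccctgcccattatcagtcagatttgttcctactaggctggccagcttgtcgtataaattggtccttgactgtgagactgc
Sprr2e: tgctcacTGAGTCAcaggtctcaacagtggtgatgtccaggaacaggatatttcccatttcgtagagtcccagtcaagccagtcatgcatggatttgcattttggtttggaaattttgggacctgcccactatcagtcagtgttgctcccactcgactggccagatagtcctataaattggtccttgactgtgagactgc
Sprr2f: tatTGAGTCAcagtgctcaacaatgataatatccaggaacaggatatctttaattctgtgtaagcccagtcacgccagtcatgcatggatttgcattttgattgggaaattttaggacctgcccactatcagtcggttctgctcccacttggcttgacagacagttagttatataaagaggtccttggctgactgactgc
All 4 held TGAGTCA at nearly the same distance from the start, with its first base at -195 in Sprr2b, -193 in Sprr2d and Sprr2e and -197 in Sprr2f. Aligned end to end, the windows of Sprr2d and Sprr2e were 92.0% identical, and Sprr2b and Sprr2f, the least alike of the 4, were 65.4% identical, so the shared motif comes with shared surrounding sequence. The chemokine windows lie on the plus strand at chr5:90891045-90891244 for Cxcl1 and chr5:90903699-90903898 for Cxcl2.
Cxcl1: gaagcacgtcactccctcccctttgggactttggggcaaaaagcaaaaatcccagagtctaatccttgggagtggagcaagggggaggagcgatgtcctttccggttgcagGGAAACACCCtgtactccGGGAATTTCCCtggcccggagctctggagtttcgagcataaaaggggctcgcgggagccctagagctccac
Cxcl2: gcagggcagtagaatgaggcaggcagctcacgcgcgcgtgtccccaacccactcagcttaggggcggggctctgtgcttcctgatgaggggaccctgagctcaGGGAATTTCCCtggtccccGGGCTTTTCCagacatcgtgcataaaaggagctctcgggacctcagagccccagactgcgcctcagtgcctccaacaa
Both contain the run GGGAATTTCCC, in which the NF-κB motif matches on each strand, and 1 further match each, GGAAACACCC in Cxcl1 and GGGCTTTTCC in Cxcl2. Over the whole window they were 52.6% identical. A match is a description of the letters and not evidence that a factor was bound.

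Il17rd itself (chromosome 14, 27038941 to 27107286, plus strand, GRCm38) checks the label. It had 252 counts in untreated WT, 265 in treated WT, 150 in treated Il17rc KO and 5 in treated Il17rd KO, 54.0-fold lower (22.8 to 168) than in untreated WT. The library labelled Il17rd KO was the lowest of the 4, and the others held 150 counts or more. Among the genes of IL-17 receptors and their signalling chain, 2 of 25 were lower and 0 higher, beside 3.35% and 5.36% of all genes, with a median log2 ratio of -0.03 that is 0.08 with scaling by total counts. The other called member was Il17rb, the receptor chain for IL-17E, which had 72 counts in untreated WT and 28 in treated Il17rd KO, 2.75-fold lower (1.76 to 4.43). Il17rc, which encodes the chain that IL-17A needs beside IL-17RA, had 2729, 1152, 439 and 1718 counts in the order above and was 1.70-fold lower (1.60 to 1.81), short of the size rule. Il17ra had 548 and 558 counts in the compared libraries. Traf3ip2, which encodes Act1, and Traf6, the ubiquitin ligase that acts after it, had 920 and 1079 and 1033 and 1176 counts, and neither was called.

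Cxcl1, Cxcl2 and Cxcl5, which encode neutrophil-attracting chemokines, were higher in treated Il17rd KO than in untreated WT, at levels well under those of treated WT. Of 14 chemokine and colony-stimulating factor genes, 5 were higher and 3 lower, beside 5.36% and 3.35% of all genes, and the median log2 ratio was 0.36. Cxcl1, whose promoter is printed above, had 92 counts in untreated WT, 4443 in treated WT, 286 in treated Il17rc KO and 468 in treated Il17rd KO, a ratio of 4.75 (3.79 to 6.00). Untreated WT was the lowest of the 4 libraries and treated WT the highest. Cxcl2 had 22, 426, 73 and 82 counts in the same order and was 3.48-fold higher (2.15 to 5.85). Cxcl5 had 12, 951, 5 and 70 and was 5.44-fold higher, but the Il17rc KO library lay below untreated WT. Csf3, the granulocyte growth factor, had 17, 610, 31 and 53 counts and was 2.91-fold higher (1.66 to 5.36). Ccl20, which attracts CCR6-bearing T cells, followed another order, with 91, 152, 143 and 236 counts: it was highest in treated Il17rd KO, 2.42-fold above untreated WT (1.89 to 3.12). The lower members were Cxcl14, Ccl27a and Ccl2, chemokines made by resting keratinocytes or drawing monocytes. Cxcl14 fell from 1767 counts to 850 and was 2.23-fold lower, Ccl27a was 2.31-fold lower, and Ccl2 was 2.09-fold lower but lost its call with scaling by total counts. Reads of Ccl27a are uncertain because another annotated gene is nearly identical to it.

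Of 16 IL-1 family genes 2 were higher and 2 lower, beside 5.36% and 3.35% of all genes, and their median log2 ratio was -0.26. Il1f6, which encodes IL-36α, an epidermal cytokine of psoriatic inflammation, had 38 counts in untreated WT, 171 in treated WT, 26 in treated Il17rc KO and 240 in treated Il17rd KO, 5.90-fold higher (4.17 to 8.54). treated WT and treated Il17rd KO held its highest counts, and the Il17rc KO library lay below untreated WT. Il33, the alarmin stored in nuclei, had 214, 49, 290 and 595 counts and was 2.60-fold higher, while treated WT held the fewest. Il1a, by contrast, reached 6135 counts in treated WT but 501 in treated Il17rd KO against 246 in untreated WT, a ratio of 1.90 (1.63 to 2.22) that missed the size rule and passed it with scaling by total counts. Il18 and its receptor chain gene Il18rap were 2.65-fold and 2.64-fold lower. Among 9 other epithelial cytokine genes 1 was higher: Il24, with 2 counts in untreated WT, 333 in treated WT, 46 in treated Il17rc KO and 40 in treated Il17rd KO, 18.7-fold above untreated WT (4.84 to 159). Tnf, with 319 and 382 counts in the compared libraries, was not called.

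The calprotectin genes S100a8 and S100a9, whose products form an antimicrobial and pro-inflammatory dimer, were among the genes furthest above untreated WT. S100a8 had 75 counts in untreated WT, 653 in treated WT, 269 in treated Il17rc KO and 2575 in treated Il17rd KO, or 3.91, 33.4, 13.4 and 125 CPM, a 32.0-fold difference (25.5 to 40.9) from untreated WT. S100a9 had 103, 770, 258 and 3470 counts in that order and was 31.4-fold higher (25.8 to 38.6). Both were highest in treated Il17rd KO and lowest in untreated WT, with the other treated libraries between. Per transcript length, the deposited FPKM of S100a9 was 10.3 in untreated WT and 323 in treated Il17rd KO, and that of S100a8 was 5.63 and 180, so S100a9 was the more abundant of the pair in both. S100a7a, a relative of human psoriasin, was 3.08-fold higher, from 23 to 76 counts. These were the 3 called members of 12 S100 genes. The median log2 ratio of that list was -0.04, which turns to 0.07 with scaling by total counts, so the rest of the family stood near the level of all genes.

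Other secreted defence genes were higher too: 6 of 15 antimicrobial and acute-phase genes, with 1 lower and a median log2 ratio of 0.56. Over the same genes the median was -0.32 for treated WT and -0.47 for treated Il17rc KO, each against the same untreated library. Chil1, a chitinase-like protein, had 20 counts in untreated WT, 23 in treated WT, 16 in treated Il17rc KO and 165 in treated Il17rd KO and was 7.70-fold higher (4.83 to 12.9). It stood out in the Il17rd KO library alone of the 4. Defb14, a beta-defensin, had 42, 147, 207 and 203 counts and was 4.51-fold higher, close to its count in the Il17rc KO library. Wfdc2 and Slpi, protease inhibitors of mucosal secretions, were 5.13-fold and 2.63-fold higher, and both had their largest counts in treated WT, with 116 and 1696. The ratio of Wfdc2 rests on few counts, at 0.313 CPM (0.115 to 0.681) in untreated WT and 1.61 CPM (1.11 to 2.26) in treated Il17rd KO. Lcn2, a siderophore-binding protein often raised by IL-17A, had 85, 54, 19 and 135 counts, and its ratio of 1.48 (1.12 to 1.97) did not pass the size rule. The lower member was Lyz2, the lysozyme gene of myeloid cells, with 796 and 348 counts, which also has a near-identical copy. Steap4, a metalloreductase gene, had 160, 486, 255 and 939 counts and was 5.48-fold higher.

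**Figure D2:**
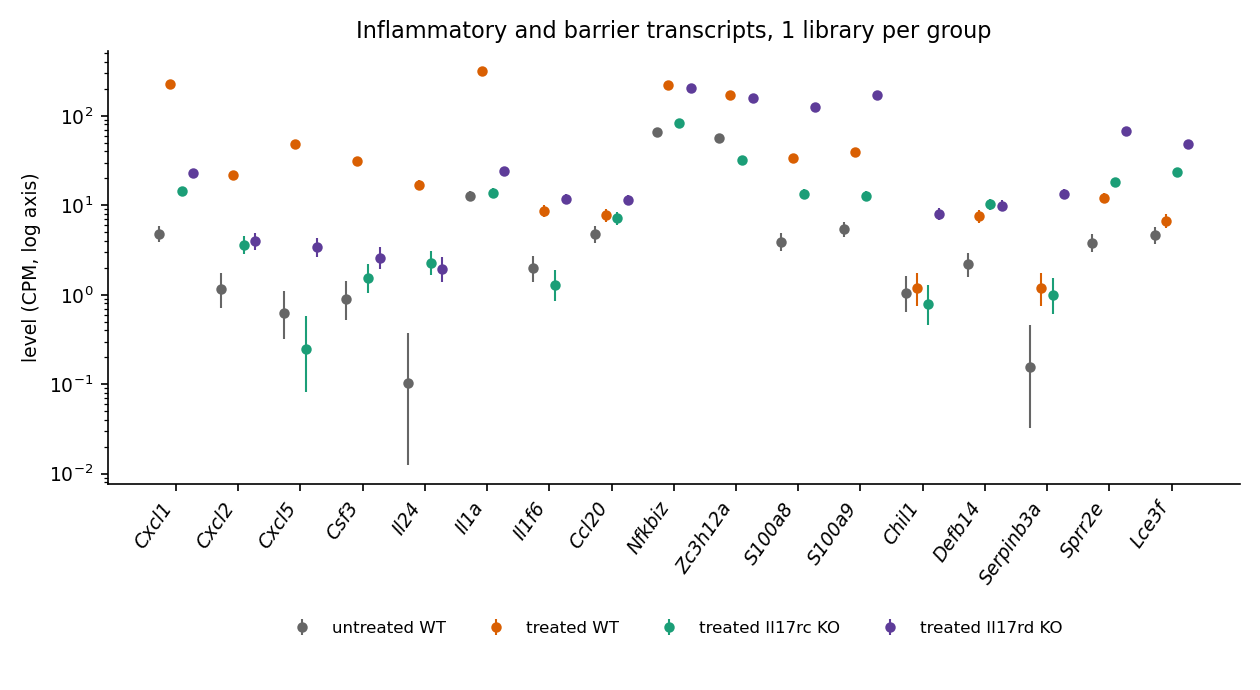
Levels (vertical axis, CPM, logarithmic) of 17 inflammatory and barrier transcripts in the 4 libraries, 1 point per library with the exact 95% Poisson interval of its count. Cxcl1, Cxcl5, Csf3, Il24 and Il1a peak in treated WT, and S100a8, S100a9, Chil1, Serpinb3a, Sprr2e and Lce3f in treated Il17rd KO.

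Genes of the NF-κB pathway and its feedback, listed together with known IL-17A targets, differed in a few members. Of 28, 4 were higher and 0 lower, beside 5.36% and 3.35% of all genes. Their median log2 ratio was -0.06, or 0.06 with scaling by total counts. Against the same untreated library, the list had a median of -0.15 in treated WT and -0.35 in treated Il17rc KO. Nfkbiz, which encodes IκBζ, had 1257 counts in untreated WT, 4338 in treated WT, 1659 in treated Il17rc KO and 4209 in treated Il17rd KO and was 3.13-fold higher. Zc3h12a, the RNase regnase-1 that degrades cytokine transcripts, had 1095, 3322, 646 and 3274 counts and was 2.79-fold higher. For both, treated Il17rd KO lay beside treated WT, and treated Il17rc KO nearer to untreated WT. Zc3h12c was 3.11-fold and Tnfaip2 2.15-fold higher. Tnfaip3 and Nfkbia, the feedback inhibitors A20 and IκBα, were not called, with 1390 and 987 and 5513 and 5592 counts in the compared libraries.

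Genes induced by ERK signalling stood near the level of all genes. Of 28, 2 were higher and 0 lower, beside 5.36% and 3.35% of all genes, and their median log2 ratio was -0.01, turning to 0.10 with scaling by total counts. The same list had a median of 0.72 in treated WT, against the same untreated library. Etv4, an ERK-induced transcription factor, had 46 counts in untreated WT, 1143 in treated WT, 280 in treated Il17rc KO and 142 in treated Il17rd KO and was 2.88-fold higher. Etv5, its relative, was 6.38-fold higher, from 18 to 123 counts, and has a near-identical copy. The phosphatase gene Dusp6 and the feedback inhibitor gene Spry4 were not called, with 211 and 285 and 39 and 30 counts. Of 15 EGF family ligand and growth factor receptor genes, 3 were higher and 1 lower, beside 5.36% and 3.35% of all genes. The ligand genes Hbegf, Areg and Ereg were 2.05-fold, 2.13-fold and 2.02-fold higher, and Fgfr3 was 2.22-fold lower. The ligand genes Tgfa, Epgn and Btc were not called, with log2 ratios of -0.41, 0.05 and 0.21. Among immediate-early genes 0 of 26 were higher and 6 lower, beside 5.36% and 3.35% of all genes, and the median log2 ratio was -0.42. Ctgf, a YAP and TGF-β target, had 2747, 5583, 1219 and 792 counts and was 3.72-fold lower, below every other library. Egr1, Egr2, Egr3, Nr4a3 and Klf2 were the other lower members, the last by 2.02-fold and without a call under scaling by total counts.

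Cornified-envelope genes divided by family and branch. In the small proline-rich family 8 of 14 members were higher and 0 lower, and the median log2 ratio was 1.44. All of the higher members belong to the Sprr2 branch, 8 of its 11, and 1 of them is annotated as a pseudogene. Sprr2e had 73 counts in untreated WT, 236 in treated WT, 367 in treated Il17rc KO and 1375 in treated Il17rd KO and was 17.6-fold higher (13.9 to 22.6). Sprr2f had 15, 37, 42 and 361 counts and was 22.5-fold higher (13.4 to 40.6). Sprr2b had 143, 74, 270 and 1963 counts and was 12.8-fold higher. These neighbours, whose promoters share the TGAGTCA run shown above, were all highest in treated Il17rd KO. Sprr2d, whose window is nearly identical to that of Sprr2e, had 1162, 930, 1889 and 8070 counts and was 6.48-fold higher. Its FPKM of 88.8 in untreated WT and 576 in treated Il17rd KO can be set beside that of Sprr2h, a member that was not called, at 462 and 491. Summed over the branch, Sprr2 transcripts made up 559 CPM in untreated WT, 289 in treated WT, 546 in treated Il17rc KO and 1204 in treated Il17rd KO. The Sprr1 branch differed from this: Sprr1a and Sprr1b were 1.67-fold and 1.74-fold lower, short of the size rule.

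The late cornified envelope genes divided by branch in the same way. All 6 Lce3 genes were higher, with a median log2 ratio of 2.66, whereas of 14 Lce1 genes 0 were higher and 1, Lce1m, was lower by 5.21-fold. Over all 22 members 6 were higher, 1 was lower and the median was -0.38. Lce3b had 28 counts in untreated WT, 9 in treated WT, 101 in treated Il17rc KO and 388 in treated Il17rd KO and was 12.9-fold higher. Lce3f had 89, 132, 478 and 1001 counts and was 10.5-fold higher, and Lce3a was 12.6-fold higher (7.72 to 22.1). Lce3 genes are known to be raised in wounded and psoriatic skin, Lce1 genes in normal late differentiation. Each Lce3 gene has a near-identical copy, so the split of reads between members is uncertain. Summed, the branch made up 42.5 CPM in untreated WT, 17.9 in treated WT, 107 in treated Il17rc KO and 186 in treated Il17rd KO.

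These families lie in the epidermal differentiation complex, a stretch of chromosome 3 that also holds the S100 genes, filaggrin and loricrin. Between 90511034 and 93564643 (GRCm38), 56 genes of these families were compared, a set drawn after the values were seen, and 18 were higher and 6 lower. S100a7a, S100a8, S100a9, Pglyrp4, 8 of 11 Sprr2 genes and the Lce3 branch were called higher. Lor, Lce1m, Crnn, Flg2, Flg and Tchh were called lower. Of these, only Lor lay between genes called higher. The others lay together beyond Lce3f, the last gene called higher. The other Sprr2 genes, Sprr2a1, Sprr2a3 and Sprr2h, were not called, with log2 ratios of -0.95, -0.44 and 0.09.

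**Figure D3:**
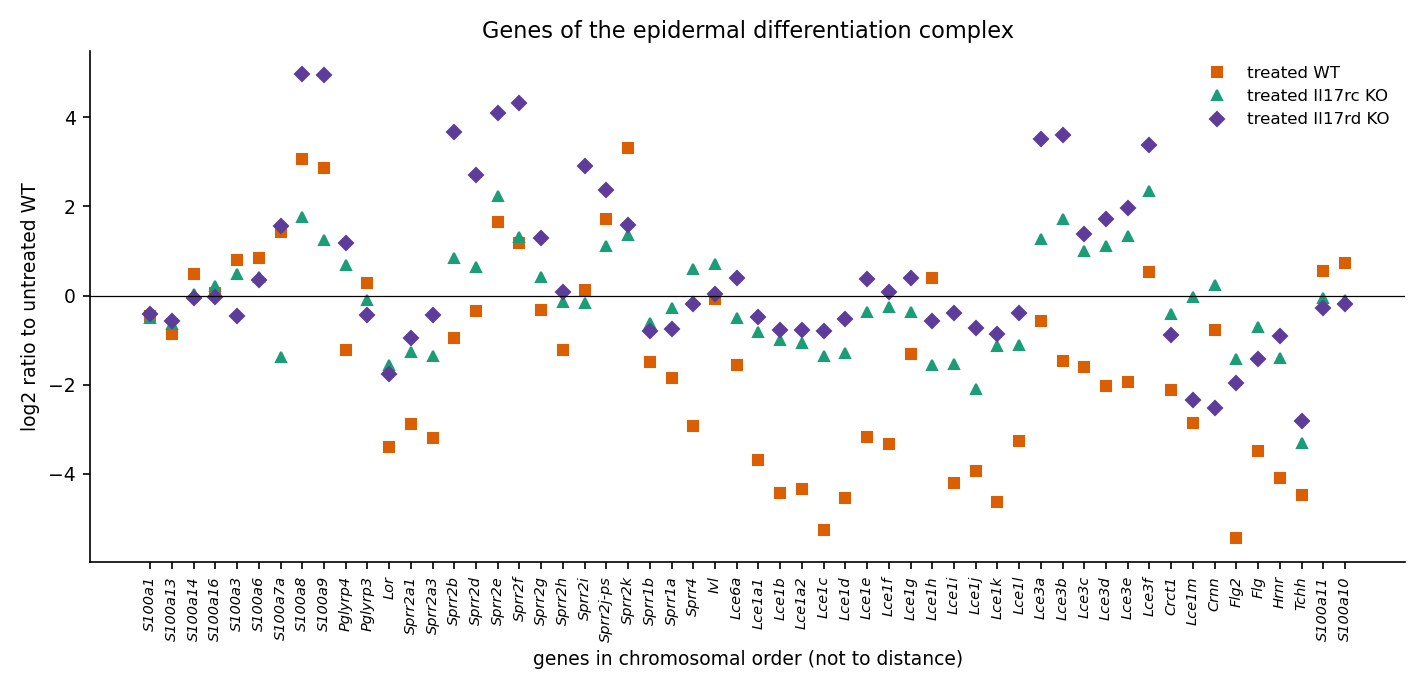
Log2 ratio to untreated WT (vertical axis) of the 56 genes of the epidermal differentiation complex in chromosomal order (horizontal axis, not to distance), for treated WT, treated Il17rc KO and treated Il17rd KO, which share the untreated library. In treated Il17rd KO S100a8, S100a9, the Lce3 genes and the 8 called Sprr2 genes lie above 0, while Sprr2a1, Sprr2a3, Lor, Flg, Flg2 and Lce1m lie below it.

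Intracellular protease inhibitors of the epidermis were also higher in part: 7 of 24 serpin and stefin genes, with 3 lower, beside 5.36% and 3.35% of all genes. The median log2 ratio of the list was 0.01. Serpinb3a, a relative of human squamous cell carcinoma antigen, had 3 counts in untreated WT, 23 in treated WT, 20 in treated Il17rc KO and 277 in treated Il17rd KO. Its ratio of 86.2 has a wide interval (29.2 to 420) because of the 3 counts. Serpinb3b had 30, 53, 106 and 315 counts and was 9.80-fold higher, and Serpinb12 and Serpinb10 were 5.32-fold and 4.39-fold higher. Of the cysteine protease inhibitors, Stfa2 was 4.90-fold, Stfa1 4.50-fold and Csta1 2.84-fold higher. Stfa1 and Stfa2 each have a near-identical copy. Serpinb6b, Serpinb9 and Serpinb7 were 3.46-fold, 2.98-fold and 2.58-fold lower. In treated WT they had 56, 77 and 12 counts, against 281, 253 and 130 in untreated WT.

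A part of the markers of the spinous and granular layers was lower. Of 39 genes 13 were lower and 0 higher, and the median log2 ratio was -0.79, or -0.68 with scaling by total counts. In bulk RNA, fewer cells of a layer and less RNA per cell cannot be told apart. Krt1 had 48645 counts in untreated WT, 756 in treated WT, 12388 in treated Il17rc KO and 22536 in treated Il17rd KO and was 2.31-fold lower. Krt10, its partner, had 11590, 220, 2220 and 3635 counts and was 3.42-fold lower. Untreated WT was the highest library for both, and treated WT the lowest. Lor, the main protein of the cornified envelope, was 3.40-fold lower, from 16984 to 5354 counts, Flg 2.67-fold, Flg2 3.92-fold and Krt77 6.07-fold. Pla2g2f, a secreted phospholipase of the outer epidermis, was 4.65-fold lower. Ivl, an early envelope protein, had 567 and 621 counts and was not called. Summed over the list, these markers made up 16361 CPM in untreated WT, 3771 in treated WT, 8621 in treated Il17rc KO and 8131 in treated Il17rd KO. Of 34 transcription factors of differentiation 2 were higher and 3 lower, beside 5.36% and 3.35% of all genes. Pou2f3 was 2.79-fold and Id1 2.71-fold lower, and Dlx3 2.13-fold lower except under scaling by total counts. Ehf was 2.36-fold and Ovol2 2.18-fold higher.

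Basal-layer and wound genes differed less. Of 31 basal and adhesion genes 0 were higher and 2 lower, beside 5.36% and 3.35% of all genes. The lower members were Krt15, a basal and stem-cell keratin, with 497 and 137 counts, and the laminin gene Lamb2, 2.18-fold lower. The wound keratins Krt6a, Krt16 and Krt17 were not called, and their ratios were within 1.5-fold of untreated WT. Krt6a and Krt16 have near-identical copies. Krt75 was 3.27-fold higher, from 64 to 224 counts, and Krt8, a keratin of simple epithelia, 2.15-fold higher against 2146 counts in treated WT. Krt8 also has a near-identical copy. Of 37 junction genes 3 were higher, all of gap junctions, and 1 was lower, beside 5.36% and 3.35% of all genes. Gjb2, which encodes connexin 26, had 143 counts in untreated WT, 373 in treated WT, 1216 in treated Il17rc KO and 1182 in treated Il17rd KO and was 7.72-fold higher, nearly the same in both knockouts. Gjb6 and Gja1 were 2.84-fold and 2.21-fold higher. Matrix proteases and their inhibitors were mixed, with 5 of 28 higher and 3 lower, beside 5.36% and 3.35% of all genes. Mmp9 had 21, 1314, 57 and 119 counts and was 5.29-fold higher, and Mmp3 had 158, 450, 591 and 661 and was 3.90-fold higher.

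**Figure D4:**
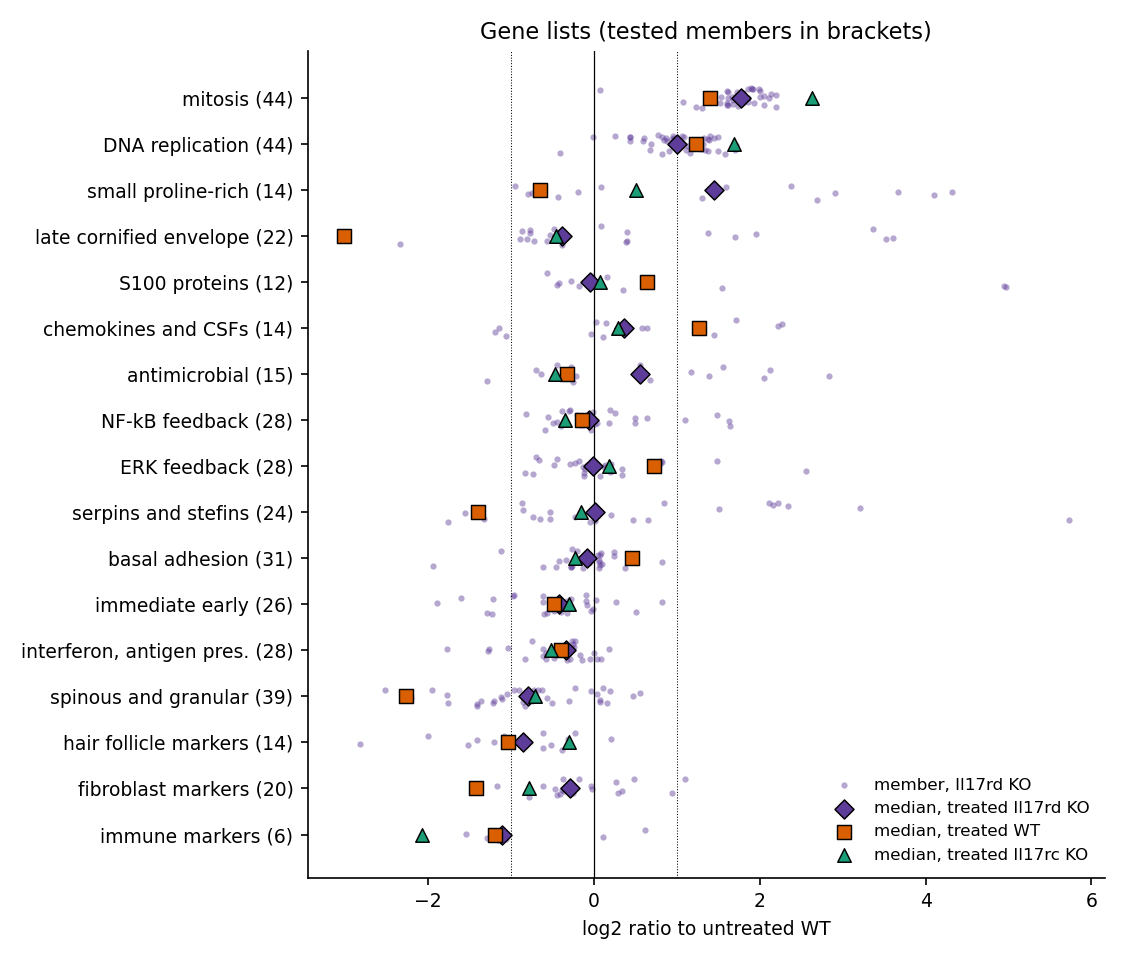
Log2 ratio to untreated WT (horizontal axis) for the members of 17 gene lists (rows, compared members in brackets). Small points are members in treated Il17rd KO, diamonds their median, squares the median in treated WT triangles that in treated Il17rc KO, and dotted lines mark 2-fold. Mitosis, DNA replication and small proline-rich genes have medians of 1.77, just over 1 and 1.44 in treated Il17rd KO, and spinous and granular genes -0.79.

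Mitosis genes were higher with 1 exception. Of 44 mitosis genes 43 were higher and 0 lower, and their median log2 ratio was 1.77. The remaining member, Pttg1 (securin), had 358 and 403 counts. Cdk1, the kinase that drives entry into mitosis, had 539 counts in untreated WT, 1989 in treated WT, 3817 in treated Il17rc KO and 2085 in treated Il17rd KO and was 3.61-fold higher (3.28 to 3.98). Mki67, the proliferation marker, had 1750, 3667, 11189 and 5993 counts and was 3.20-fold higher. Hmmr, a spindle protein gene, was 4.58-fold higher, from 307 to 1507 counts. For each of these, untreated WT was the lowest library and treated Il17rc KO the highest. Summed over the list, mitosis transcripts made up 1092 CPM in untreated WT, 2845 in treated WT, 6458 in treated Il17rc KO and 3612 in treated Il17rd KO. The knockout libraries also differ from untreated WT in genotype, so these values do not separate the treatment from it. Of 44 DNA replication genes 22 were higher and 0 lower, and their median log2 ratio was just over 1. Orc1, part of the origin recognition complex, was 3.35-fold, Tyms 3.01-fold, Cdc6 2.77-fold and Mcm5 2.61-fold higher. Tyms and Cdc6 have near-identical copies. Of 18 cyclins and their inhibitors, Ccnd1 and Ccne2 were higher, by 2.10-fold and 2.20-fold. Cdkn1a was not called, with 20809 and 16897 counts, and neither was any of 25 p53 target genes.

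**Figure D5:**
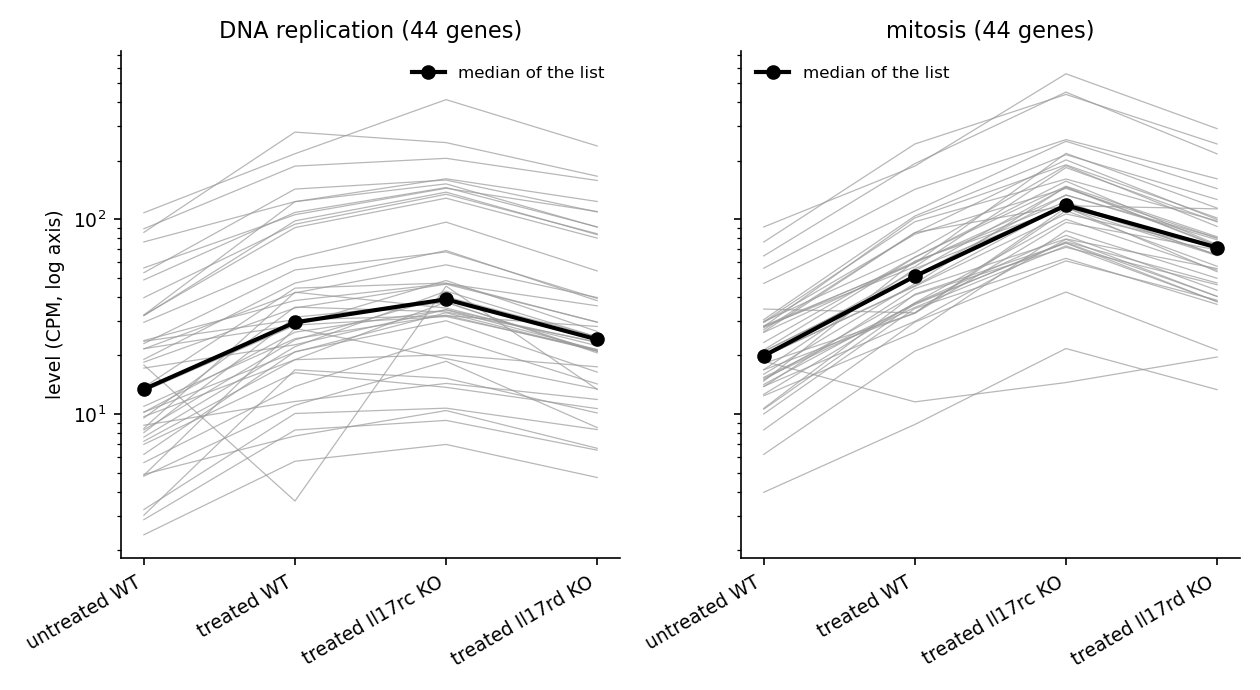
Levels (vertical axis, CPM, logarithmic) of 44 DNA replication genes (left) and 44 mitosis genes (right) in the 4 libraries (horizontal axis), 1 grey line per gene and the list's median in black. The median of the mitosis genes was 19.9 CPM in untreated WT, 51.0 in treated WT, 118 in treated Il17rc KO and 71.6 in treated Il17rd KO.

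Metabolic and stress lists had median log2 ratios near that of all genes, with some members called. Of 31 NRF2 target genes 5 were higher and 0 lower, beside 5.36% and 3.35% of all genes. The median log2 ratio of that list was -0.05, or 0.06 with scaling by total counts. Gsta4, a glutathione transferase that handles lipid peroxides, had 15 counts in untreated WT, 241 in treated WT, 311 in treated Il17rc KO and 179 in treated Il17rd KO and was 11.1-fold higher. All 3 treated libraries lay far above untreated WT. Osgin1, Akr1b8, Slc7a11 and Nqo1 were 3.88-fold, 2.56-fold, 2.35-fold and 2.19-fold higher. None of 34 sterol and fatty acid genes or of 16 Notch pathway genes was called. Psap, the lysosomal saposin precursor, had 93558, 20100, 16797 and 25621 counts and was 3.91-fold lower, among the 10 genes with the largest loss in CPM. All 3 treated libraries lay below untreated WT. Igfbp2, a binding protein of insulin-like growth factors, was 4.01-fold lower, from 12965 to 3460 counts, while Igfbp3 and Igfbp7 were 2.55-fold and 2.03-fold higher. Ass1 and Odc1, of arginine and polyamine synthesis, were 2.53-fold and 2.43-fold higher, and both have near-identical copies. Wnt16 was 3.76-fold lower, and Wnt9a was 2.14-fold lower except under scaling by total counts. Of 28 interferon and antigen presentation genes 0 were higher and 4 lower, beside 5.36% and 3.35% of all genes. Their median log2 ratio was -0.34. The lower members were Ifit3, by 3.65-fold, Isg15, Irf7 and Ifi27. Ifit3 and Isg15 have a near-identical copy each, and Ifi27 lost its call with scaling by total counts. P2rx2, an ATP-gated channel, had 4034 counts in untreated WT, 4233 in treated WT, 1375 in treated Il17rc KO and 1179 in treated Il17rd KO, 3.67-fold lower, and both knockouts lay below both WT libraries.

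Markers of other cells in such cultures were measured beside these genes, and their part in the results was not tested. For hair follicle cells 14 of 28 listed markers had values, of which 7 were lower and 0 higher. Their summed level was 1768 CPM in untreated WT and 774 in treated Il17rd KO, with 657 in treated WT and 973 in treated Il17rc KO. Tchh, trichohyalin of the inner root sheath, had 14722 counts in untreated WT and 2234 in treated Il17rd KO, 7.06-fold lower. It alone made up 768 CPM of the sum in untreated WT and 109 CPM in treated Il17rd KO. Of the lower members, Dlx3 and Vdr lost their calls with scaling by total counts. Lgr5 and Krt79 were 3.10-fold and 2.82-fold lower. For fibroblasts 20 of 24 markers had values, 1 was higher and 1 lower, and the sums were 1249 and 1273 CPM in the compared libraries. The median log2 ratio was -0.29, with 14 members below 0 and 6 above. The sums rest largely on a few abundant genes, such as Fn1, at 586 and 447 CPM, and Fbln2, at 126 and 268 CPM. The defining fibroblast markers Dcn, Lum, Dpt and Mfap5 were not analysed here. Immune markers had values for 6 of 22, with 4 lower and sums of 85.0 and 56.3 CPM, while S100a8 and S100a9, also made by neutrophils, were higher. None of the 12 melanocyte markers was called. Endothelial and muscle markers had values for 5 of 16, with Vwf 3.81-fold lower.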

How the data were processed

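RNA-seq of 4 mouse keratinocyte cultures, 1 library per group, was analysed from per-gene tables. Per the submitters' processing notes, the authors used Trim Galore 0.4.4, HISAT2, featureCounts of Subread and edgeR with build mm10; the sources used here do not give settings, annotation or strand. Each deposited table gives a raw count per gene, in whole numbers. The deposited FPKM served only for levels per length and implies the relative library sizes used here. The tables hold 13102 genes, 17 of them with symbols turned into dates, which are not named.

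Library sizes were multiplied by TMM factors from all 4 libraries (edgeR 4.0.16), from 0.963 to 1.04. Log2 ratios carry a prior count of 2. Ratios have exact 95% conditional binomial (Clopper-Pearson) intervals (scipy 1.17.1), and a gene at 0 counts was set to a floor of 3 counts per library. With 1 library per group there was no test. Simulated data were used to test the calling rule. Named were the receptor genes, the 15 genes each way whose interval lay furthest from 1, the 10 each way with the largest CPM difference, the 8 each way furthest beyond both WT libraries, up to 5 members of each of 46 gene lists, and further list members chosen after their values were seen. The members and lists were chosen with earlier results of these data known. Steap4, which belongs to no list, was also named after its values were seen. Alternatives were other scalings, filters, folds and prior counts.

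Symbols were placed in GENCODE M21 (GRCm38) for 12832 genes. A near-identical copy is another annotated gene that matched at 95% identity (BLAST+ 2.17.0) over 50% of the gene's longest transcript, or over 50% of its own and at least 300 bases. This held for 10.4% of compared and 16.9% of called genes, whose reads can be split between copies. Some results are not reported here.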

Additional observations from a re-analysis of the deposited data

How the results depend on the processing

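Against 693 genes higher and 433 lower, 452 and 240 were called with a mean of at least 5 CPM, 1485 and 1308 at 1.5-fold, and 114 and 48 at 4-fold. Scaling by total counts gave 839 and 330, DESeq2 size factors 683 and 444, no filter 726 and 449, and leaving out sex-linked, mitochondrial and copied genes 555 and 368. An added rule, chosen after seeing the data, that applied the fold to log2 ratios with the prior count gave 662 and 412. Scaling by total counts moved 14 of 46 list medians by more than the median counting half-interval of their members: EGF receptor ligands and receptors to 0.21, spinous and granular genes to -0.68, differentiation factors to -0.20, basal genes to 0.0263, wound keratins to -0.0249, junctions to -0.0982, sterol genes to -0.0144, p53 targets to 0.13, Notch to 0.0104, glycolysis to 0.0389, chaperones to 0.0500, insulin-like growth factor genes to 0.0573, mitochondrially encoded genes to 0.19 and actin genes to -0.00444. It changed the sign of 11 medians, all within 0.11 of 0, and DESeq2 size factors that of 1, the serpins. Of the listed genes 29 changed their call with total counts: 14 lost a lower call, among them Asprv1, Scel, Vdr, Acer1, Skint1 and Skint8, and 15 gained a higher one, among them Il1a, Hsp90aa1, Srsf1, Mcm6 and Mcm7. No paired analysis was possible because each group has 1 library, and leaving out a replicate could not be run. Depth limits genes with few counts: at 3 counts in a library the ratio of Serpinb3a spans 29.2 to 420.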

Other observations

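Some values of the compared libraries belong to no gene list or rest on uncertain assignment of reads, and they were chosen after they were seen. AC147512.2 had 0 counts in untreated WT, 0 in treated WT, 1414 in treated Il17rc KO and 1019 in treated Il17rd KO, at least 317-fold higher than untreated WT. Bcat1, the cytosolic enzyme of branched-chain amino acid breakdown, had 3, 44, 51 and 61 counts, a ratio of 19.0 (6.20 to 94.6).

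Actg1, cytoplasmic gamma actin, had 104581 counts in untreated WT, 106257 in treated WT, 79635 in treated Il17rc KO and 10090 in treated Il17rd KO, 11.1-fold lower. Gapdh had 294, 3319, 1945 and 2225 counts, 7.06-fold higher. Both have near-identical copies, 6 for Actg1, and where their reads were counted was not tested.

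The Y-linked Ddx3y had 654, 233, 749 and 2 counts. Kdm5d had 397, 104, 348 and 0, at least 142-fold lower in treated Il17rd KO, and Eif2s3y was at least 210-fold lower.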
